A study of Mus musculus with 28 samples.

Results

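The mitochondrial genome of the mouse carries 37 genes, and all of them are described here as they appeared in ribosome footprint and total mRNA libraries: 13 mRNAs, 22 tRNAs and 2 rRNAs. They were chosen by chromosome alone (every gene placed on MT), out of 45513 genes in the count tables, and the 13 mRNAs are the main set.

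The study asked how human TDP-43, an RNA-binding protein linked to amyotrophic lateral sclerosis, and its patient mutation A315T affect translation. MN1 cells, a clonal hybrid of mouse spinal motor neurons and neuroblastoma, were transfected to express GFP, hTDP-43 or hTDP-43 A315T, with 2 cultures each (replicates 1 and 2). Cortical neurons from C57BL/6J embryos of day 16, kept 14 days in culture, came from non-transgenic mice (replicates 2 and 3) or from hemizygous mice with a prion promoter transgene for hTDP-43 or hTDP-43 A315T (replicates 1 to 3 each). Every culture gave 1 footprint library (monosome fractions after RNase I) and 1 total mRNA library (poly(A)-selected), which makes 12 MN1 and 16 neuron libraries. MN1 cells received 100 µg/ml cycloheximide, which stalls cytosolic ribosomes, for 3 min before lysis; neurons did not, and all neuron cultures received 0.5 µM cytosine arabinoside against dividing cells. Cell type therefore cannot be told apart from drug exposure and from the way the cells were grown.

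Libraries held from 166064 to 6969578 reads assigned to genes, and from 512 to 75439 of those fell on the 13 mRNAs. In total mRNA, neuron markers (Tubb3, Map2, Rbfox3, Snap25, Syt1) summed to 2479 to 3393 CPM (counts of a gene scaled to a common library total) in the neuron cultures and 502 to 586 CPM in MN1 cells. The motor neuron markers Mnx1, Isl1, Chat and Slc18a3 summed to 60.2 to 82.0 CPM in MN1 cells and 3.04 to 8.07 CPM in neurons. Astrocyte markers (Gfap, Aqp4, Slc1a3, Aldoc) summed to 39.9 to 127 CPM in neuron total mRNA, and microglia markers to at most 3.05 CPM.

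Mitochondrial genes are read by a machinery of their own. Both strands are transcribed as long RNAs that span nearly the whole genome, tRNAs punctuate most of the mRNAs and rRNAs and are cut out between them, and the mRNAs are translated inside the organelle by mitochondrial ribosomes, which cycloheximide does not block. The 13 proteins are all core parts of oxidative phosphorylation: mt-Nd1, mt-Nd2, mt-Nd3, mt-Nd4, mt-Nd4l, mt-Nd5 and mt-Nd6 encode proton-pumping subunits of complex I, mt-Cytb encodes cytochrome b of complex III, mt-Co1, mt-Co2 and mt-Co3 the core of complex IV, and mt-Atp6 and mt-Atp8 parts of the ATP synthase, complex V. Each of these complexes also needs many subunits that are encoded in the nucleus and made by cytosolic ribosomes. mt-Nd6 is the one mRNA of the opposite strand.

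Stretches of mitochondrial DNA also lie in the nuclear chromosomes, where a read can match both copies. On chromosome 1 (GRCm38, minus strand) the bases 24611535 to 24616184 match MT 6394 to 11042 over 4649 aligned bases with 1 substitution and 1 gap, an identity of 99.98%. That stretch holds all of mt-Co2, mt-Atp8, mt-Atp6, mt-Co3, mt-Nd3 and mt-Nd4l and parts of mt-Co1 and mt-Nd4. The first bases of 3 of these coding sequences and of their copies are given with that of mt-Cytb, because they show how little there is to tell a mitochondrial read from a nuclear one. Those of mt-Co2 and mt-Atp8 are identical to their copies. In mt-Nd3 capitals mark the single substitution of the stretch, T9461C, with positions counted from 1 at the start of the mitochondrial sequence.
mt-Co2, MT:7013-7042, plus strand: atggcctacccattccaacttggtctacaa
nuclear copy, chr1:24615536-24615565, minus strand: atggcctacccattccaacttggtctacaa
mt-Atp8, MT:7766-7795, plus strand: atgccacaactagatacatcaacatgattt
nuclear copy, chr1:24614783-24614812, minus strand: atgccacaactagatacatcaacatgattt
mt-Nd3, MT:9459-9488, plus strand: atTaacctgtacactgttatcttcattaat
nuclear copy, chr1:24613090-24613119, minus strand: atCaacctgtacactgttatcttcattaat
mt-Cytb, MT:14145-14174, plus strand, with no exact nuclear copy of its first windows: atgacaaacatacgaaaaacacacccatta

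Every window of 28 bases, about the size of a footprint, was compared with chromosomes 1 to 19, X and Y on both strands. None of the 657 windows of mt-Co2, 654 of mt-Atp6, 757 of mt-Co3, 270 of mt-Nd4l or 177 of mt-Atp8 was free of an exact nuclear copy, and 3 of 321 were in mt-Nd3. In mt-Nd1 100% of the windows had no copy, against 90.7% in mt-Cytb, 89.4% in mt-Nd6, 83.9% in mt-Nd2, 80.4% in mt-Nd5, 36.3% in mt-Nd4 and 33.3% in mt-Co1. mt-Co2, mt-Atp6, mt-Co3, mt-Nd3 and mt-Nd4l together collected 923 of the 335378 reads on the 13 mRNAs in the 28 libraries, or 0.275%. mt-Nd4l, for example, had 5 reads in all and mt-Co2 had 64. mt-Atp8 had 8969 reads, although it lies in the same stretch, and mt-Co1 had the most of all, 88258.

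mt-Atp8 differed from those 5 genes in what is annotated on its nuclear copy. The copies of mt-Co2, mt-Atp6, mt-Co3, mt-Nd3 and mt-Nd4l lie in the annotated pseudogenes Gm28661, Gm10925, Gm28437, Gm28438 and Gm10222, which themselves had 5 to 103 reads over all libraries. Of the windows of mt-Atp8, 161 of 177, or 91.0%, had no copy inside an annotated nuclear exon, against at most 6 windows in each of those 5 genes. The headers of the deposited counts point to uniquely mapped reads, and how the mapping placed reads shared by both copies is not given. Whether that step or annotation decided which reads were kept was not tested, and reads counted on mt-Atp8 could come from either copy. The counts of the 5 genes are not read here as levels of their RNA, and the comparisons rest on the other 8 mRNAs, which passed the filter on low counts in every comparison.

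**Figure D1:**
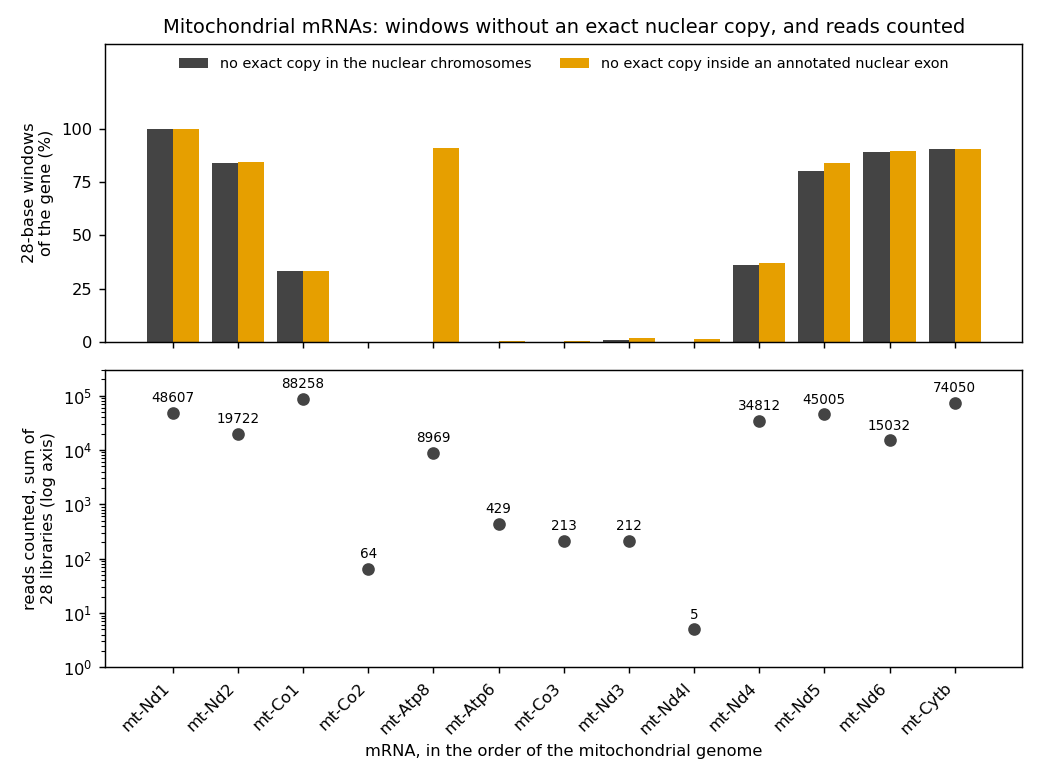
Top: share of the 28-base windows of each mitochondrial mRNA with no exact copy in the nuclear chromosomes (grey) or in annotated nuclear exons (orange), in percent. Bottom: reads counted on each mRNA, summed over 28 libraries, on a log axis. The 5 mRNAs from 5 to 429 reads have nearly no window free of an annotated copy, and mt-Atp8, with 8969 reads, has 91.0%.

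Among the 8 mRNAs the mean levels, given per length as CPM per kilobase (RPKM), ran from 94.8 to 914 in MN1 total mRNA and from 480 to 1333 in neuron total mRNA. In MN1 total mRNA, mt-Co1 (914 ± 121 RPKM, SD, n = 6) and mt-Cytb (908 ± 200 RPKM) stood at the top. mt-Nd1 (466 ± 103 RPKM), mt-Nd5 (405 ± 59.6 RPKM), mt-Nd6 (365 ± 31.9 RPKM) and mt-Nd4 (284 ± 57.4 RPKM) came next, and mt-Nd2 (97.5 ± 13.5 RPKM) and mt-Atp8 (94.8 ± 25.8 RPKM) were lowest. Within each of these steps the ranges of neighbouring genes overlapped. In neuron total mRNA mt-Cytb (1333 ± 572 RPKM, SD, n = 8), mt-Nd1 (1278 ± 511 RPKM) and mt-Co1 (1193 ± 503 RPKM) were highest, with overlapping spreads, and mt-Nd2 was lowest (480 ± 146 RPKM), within the spread of mt-Nd5 (562 ± 267 RPKM). In footprints the leading mRNAs were mt-Cytb in MN1 cells (423 ± 135 RPKM) and mt-Atp8 in neurons (1958 ± 952 RPKM). Most windows of mt-Co1 and mt-Nd4 and all of mt-Atp8 have an exact copy elsewhere, and its part in these levels was not tested.

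The share of all assigned reads that fell on the 13 mRNAs was compared first, as a description. In MN1 cells it ran from 0.353% to 0.524% in total mRNA and from 0.0981% to 0.208% in footprints, and the ranges did not overlap. All 6 MN1 cultures had the lower share in footprints, with a mean log2 ratio of -1.51 ± 0.30 (SD, n = 6). In neurons the share was 0.324% to 1.18% in total mRNA and 0.309% to 0.882% in footprints. Only 5 of 8 neuron cultures had the lower share in footprints; replicates 2 and 3 of hTDP-43 and the non-transgenic replicate 3 had the higher one, and the mean log2 ratio was -0.47 ± 0.76 (SD, n = 8). Neuron shares were above MN1 shares in footprints without overlap, with a difference of the mean log2 shares of 1.75, and in total mRNA they overlapped, with a difference of the mean log2 shares of 0.70. These are shares of reads in bulk libraries, so mitochondrial RNA per cell, the mix of cells and the other RNAs counted cannot be told apart.

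**Figure D2:**
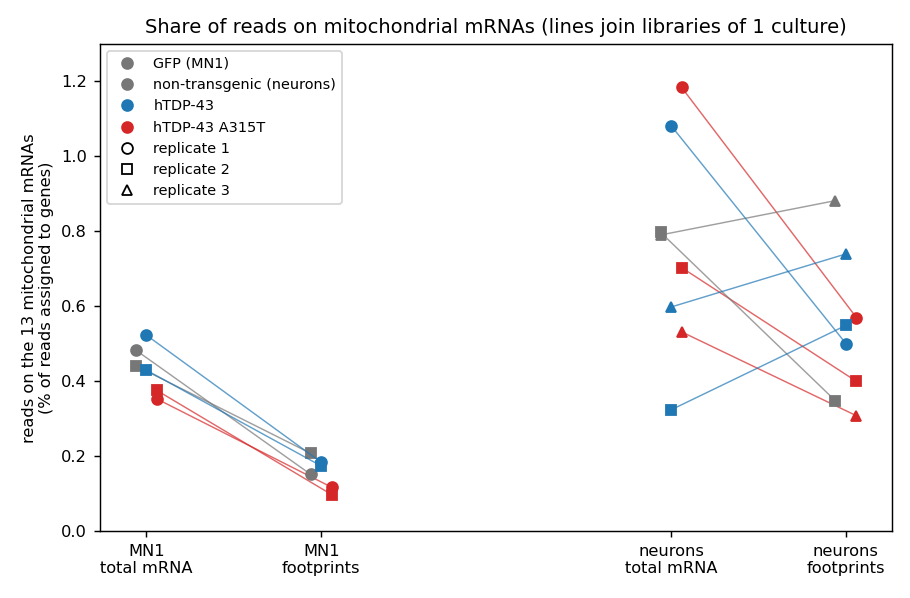
Reads on the 13 mitochondrial mRNAs as a percentage of the reads assigned to genes, 1 point per library, with lines joining total mRNA and footprints of 1 culture. Both libraries of MN1 hTDP-43 A315T (red, left) lie below the other MN1 libraries of their kind, and 3 of the 8 neuron lines rise.

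Footprints were then set against total mRNA gene by gene, with edgeR's quasi-likelihood test over all genes and Benjamini-Hochberg adjustment (threshold 0.05). A log2 change here is the difference between footprint and total mRNA abundance after scaling; it compares differently prepared libraries. In MN1 cells 6 of the 8 mRNAs were lower in footprints and 1 was higher, while 30.2% of all tested genes were lower and 27.2% higher.

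Complex I mRNAs were among the lowest. For mt-Nd1 the ratio of footprint to total mRNA CPM lay between 0.190 and 0.266 in the 6 MN1 cultures, with a median of 0.245, and the fitted log2 change was -1.84 (SE 0.14, adjusted p = 1.17e-07). mt-Nd4 gave -1.62 (SE 0.12, adjusted p = 1.52e-07) and mt-Nd5 -1.28 (SE 0.11, adjusted p = 3.25e-07). mt-Nd6 fell less, by 0.58 on the log2 scale (SE 0.10, adjusted p = 0.000241), and mt-Nd2 did not pass the test (-0.15, SE 0.13, adjusted p = 0.337). Within this complex the medians over cultures ran from 0.245 for mt-Nd1 to 0.733 for mt-Nd2, and the ranges of mt-Nd1 and mt-Nd2 did not overlap.

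For mt-Co1, the catalytic subunit of complex IV, the ratio was 0.158 to 0.300 with a median of 0.253, and the log2 change was -1.82 (SE 0.11, adjusted p = 2.41e-08). mt-Cytb of complex III fell by 0.91 (SE 0.13, adjusted p = 4.51e-05). mt-Atp8 went the other way. Its ratio had a median of 2.98 and ranged from 0.916 to 3.97, with 5 of 6 cultures above 1, and the log2 change was 1.61 (SE 0.24, adjusted p = 5.72e-05). The MN1 values of mt-Atp8 rest on 7 to 68 footprint reads and 22 to 47 total mRNA reads per library. Most windows of mt-Co1 and mt-Nd4 and all of mt-Atp8 have an exact nuclear copy. What part these copies had in the ratios of either cell type was not tested.

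In neurons mt-Atp8 was again higher in footprints (log2 1.10, SE 0.32, adjusted p = 0.00754), with ratios from 1.00 to 9.62 and a median of 2.21. mt-Nd1 (-1.25, SE 0.25, adjusted p = 0.000407), mt-Nd4 (-1.33, SE 0.27, adjusted p = 0.000555) and mt-Nd6 (-1.58, SE 0.30, adjusted p = 0.000283) were lower. The background was 26.6% of genes higher and 27.3% lower. mt-Co1 (-0.38, adjusted p = 0.253), mt-Cytb (-0.14, adjusted p = 0.687), mt-Nd2 (-0.33, adjusted p = 0.256) and mt-Nd5 (-0.58, adjusted p = 0.106) did not pass. mt-Co3 was listed as lower too, with 2 to 49 total mRNA reads and 0 to 6 footprint reads per library, but it passed the filter on low counts only through total mRNA, where it is high, and that call is not used. With the culture as a block, where 28.7% of genes were higher and 28.8% lower, mt-Nd5 passed as well (-0.47, SE 0.15, adjusted p = 0.0163).

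The neuron cultures did not move together in this measure. For mt-Co1 the ratio was 0.432 to 0.576 in 5 cultures and 1.47, 1.64 and 1.77 in hTDP-43 replicate 3, non-transgenic replicate 3 and hTDP-43 replicate 2. Without the cultures numbered 3 of the non-transgenic and hTDP-43 groups, whose total mRNA libraries stand apart (as described with the neuron genotypes), mt-Co1 passed (-0.83, adjusted p = 0.0285) and mt-Atp8 did not (0.79, adjusted p = 0.0532). That setting was chosen after the data had been seen and leaves 1 non-transgenic culture, which is assumed to vary like the others.

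**Figure D3:**
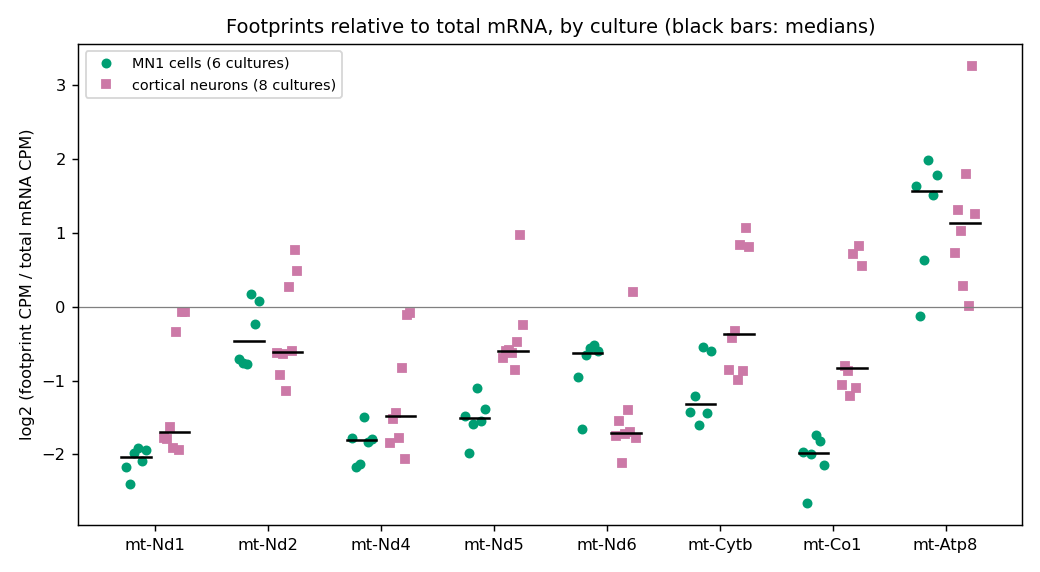
log2 ratio of footprint CPM to total mRNA CPM for 8 mitochondrial mRNAs, 1 point per culture, in MN1 cells (green circles) and cortical neurons (pink squares), with black bars at the medians. mt-Atp8 lies above 0 in 5 of 6 MN1 and 8 of 8 neuron cultures, mt-Nd1 lies below 0 in all 14 cultures, and mt-Co1 splits the neurons into 5 cultures below and 3 above 0.

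Nuclear genes for the same complexes were mostly higher in footprints. That is the direction of mt-Atp8 and opposite to the mitochondrial mRNAs called lower. Of 73 nuclear-encoded subunits or partners of complexes I, III, IV and V, 70 were higher in MN1 footprints than in total mRNA and 1 was lower, with a median log2 change of 1.05, beside a median of -0.05 over all genes. Over all tested genes 27.2% were higher and 30.2% lower there. In neurons 66 of the 73 were higher and 1 lower, with a median of 1.09, where 26.6% of all genes were higher and 27.3% lower. Examples in MN1 cells were Ndufb4 of complex I (1.86, SE 0.17, adjusted p = 6.59e-07), Uqcrb of complex III (1.51, SE 0.15, adjusted p = 1.73e-06), Cox7b of complex IV (1.82, SE 0.11, adjusted p = 2.46e-08) and Atp5j2 of complex V (1.64, SE 0.12, adjusted p = 1.43e-07). Proteins of the mitochondrial ribosome, also made in the cytosol, were higher in 53 of 76 tested genes in MN1 cells and lower in none. In neurons 44 were higher and 2 lower. Their median log2 change was 0.55 in MN1 cells and 0.55 in neurons. These counts are a description and were not tested against the shares of all genes. Mitochondrial mRNAs are bound by other ribosomes than these nuclear mRNAs, and how well the lysis, nuclease step, gradient fractions and poly(A) selection kept each kind was not tested.

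Neurons held more mitochondrial mRNA reads than MN1 cells. In total mRNA 42.6% of all tested genes were higher in neurons and 38.4% lower, and all 8 mRNAs were higher. mt-Nd2 was 80.6 to 119 CPM in MN1 cells (median 102) and 234 to 645 CPM in neurons (median 536), without overlap, a log2 difference of 2.80 (SE 0.24, adjusted p = 4.41e-08). mt-Atp8 was 13.7 to 26.0 CPM against 47.7 to 263 CPM (log2 3.74, SE 0.37, adjusted p = 2.26e-07).

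The other mRNAs rose less. mt-Nd1 gave a log2 difference of 1.91 (SE 0.26, adjusted p = 9.30e-06), mt-Nd4 1.56, mt-Nd6 1.53, mt-Cytb 1.03, mt-Nd5 1.03 and mt-Co1 0.83 (SE 0.26, adjusted p = 0.00961). mt-Co1 overlapped between the cell types, with 1078 to 1585 CPM in MN1 cells (median 1448) and 819 to 3068 CPM in neurons (median 1620). The log2 differences, here and in footprints, carry the TMM scaling of the fit. CPM does not carry it, so CPM values can differ by less than the log2 difference beside them. mt-Nd3, mt-Co3 and mt-Atp6 also passed the filter here, but only through their neuron reads, and mt-Nd3 had 0 to 6 reads per MN1 library and 0 to 54 per neuron library.

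In footprints all 8 mRNAs were higher in neurons as well, where 42.7% of genes were higher and 39.9% lower. The log2 differences were 3.20 for mt-Atp8 (SE 0.29, adjusted p = 1.07e-09), 2.60 for mt-Nd2, 2.49 for mt-Nd1, 2.26 for mt-Co1, 1.83 for mt-Nd4, 1.79 for mt-Cytb and 1.71 for mt-Nd5, all with adjusted p of at most 5.38e-08. mt-Co1 footprints ran from 217 to 465 CPM in MN1 cells and from 789 to 2408 CPM in neurons, without overlap. mt-Nd6 was the weakest, at 0.51 (SE 0.20, adjusted p = 0.0230), with 59.4 to 147 CPM against 63.3 to 238 CPM. It was not called by DESeq2 (adjusted p = 0.0658) or without the non-transgenic replicate 3 (adjusted p = 0.110).

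Of the 73 nuclear-encoded subunits 7 were higher and 34 lower in neuron total mRNA (median log2 -0.35, beside 0.09 over all genes), where 38.4% of all genes were lower. In footprints 7 were higher and 42 lower (median -0.36, beside 0.05), where 39.9% of all genes were lower. These counts are a description and were not tested against the background. Of 76 tested proteins of the mitochondrial ribosome, 2 were higher and 58 lower in total mRNA (median -1.04), and 2 were higher and 64 lower in footprints (median -0.90). Of 44 tested factors of mitochondrial transcription, RNA processing and translation, 2 were higher and 30 lower in total mRNA. Among them were Tbrg4, which acts in mitochondrial RNA metabolism (-3.10, SE 0.13, adjusted p = 1.35e-11), Tsfm, a mitochondrial elongation factor (-2.93, SE 0.21, adjusted p = 5.97e-09), and Pnpt1, a mitochondrial RNA-degrading enzyme (-2.50, SE 0.24, adjusted p = 1.51e-07).

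Whether the footprint to total mRNA ratio itself differed between the cell types was tested with an interaction term over all 28 libraries. Of the 13 mRNAs, mt-Co1 was called, at a log2 difference of 1.53 in favour of neurons (SE 0.37, adjusted p = 0.0114); all tested genes had a median of 0.20, and 5.94% were called higher and 2.13% lower. The call on mt-Co1 was lost without MN1 hTDP-43 A315T replicate 2 (adjusted p = 0.0531) or without MN1 hTDP-43 replicate 1 (adjusted p = 0.105). With the culture as a block, where the background was 7.76% higher and 2.94% lower, mt-Co1 (1.54, adjusted p = 0.000860), mt-Nd5 (0.92, adjusted p = 0.00929) and mt-Cytb (0.90, adjusted p = 0.0379) were called higher and mt-Nd6 lower (-0.86, adjusted p = 0.0220). Without the block mt-Nd6 gave -0.90 (adjusted p = 0.163), mt-Cytb 0.86 (adjusted p = 0.154) and mt-Nd5 0.79 (adjusted p = 0.226). mt-Atp8 (-0.42, adjusted p = 0.679) and mt-Nd2 (-0.10, adjusted p = 0.971) were not called in either fit.

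The genotypes were compared within each cell type. Without the block no mitochondrial mRNA was called by edgeR in any of the 18 comparisons of footprints, total mRNA or their ratio, and DESeq2 called none either; the share of all genes called was 0.0115% for MN1 footprints and 0.00965% for MN1 total mRNA of hTDP-43 A315T against GFP, 0.01% for MN1 total mRNA of hTDP-43 against GFP, and 0% in each of the others.

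In MN1 footprints the hTDP-43 A315T libraries were nevertheless the lowest for most mRNAs. mt-Cytb was 328 and 331 CPM with hTDP-43 A315T, 419 and 707 CPM with GFP, and 497 and 620 CPM with hTDP-43. mt-Nd6 was 82.8 and 59.4 CPM with hTDP-43 A315T, 122 and 130 CPM with GFP, and 147 and 129 CPM with hTDP-43. In both genes the mutant libraries lay below all 4 others. mt-Nd2 was 49.2 and 53.7 CPM with the mutant, 65.9 and 112 CPM with GFP, and 101 and 111 CPM with hTDP-43. mt-Co1 was 276 and 217 CPM with the mutant, 347 and 465 CPM with GFP, and 432 and 358 CPM with hTDP-43. Those groups did not overlap either. mt-Atp8 did, at 42.7 and 13.4 CPM against 40.4 and 80.1 CPM with GFP. How many of all genes show such a separation was not counted.

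Against GFP the log2 changes of the 8 mRNAs in MN1 footprints ran from -0.80 to -0.46 (median -0.65, beside 0.00 over all genes). Of these, 6 had an unadjusted p under 0.05 (smallest adjusted p = 1.00), beside 245 of 8659 genes tested. Against hTDP-43, with the same A315T libraries, the 8 values ran from -0.98 to -0.47 (median -0.67). All 8 had an unadjusted p under 0.05 (smallest adjusted p = 1.00), beside 179 of 7653 genes tested. With the replicate number as a block, which stands for a shared culture date, mt-Cytb was called against GFP (-0.61, SE 0.13, adjusted p = 0.0220), where 0.624% of all genes were called. Against hTDP-43 the block gave mt-Cytb (-0.67, SE 0.14, adjusted p = 0.00106), mt-Co1 (-0.61, SE 0.14, adjusted p = 0.00561), mt-Nd6 (-0.85, SE 0.20, adjusted p = 0.00708) and mt-Nd2 (-0.97, SE 0.24, adjusted p = 0.00861), where 0.706% of all genes were called. The 54 genes called in each of these blocked fits thus held 1 and 4 mitochondrial mRNAs. Each blocked genotype fit in MN1 cells used 4 libraries for a replicate term and a genotype term. That leaves little within a gene from which to estimate its spread. The 8 mRNAs were counted in the same libraries, and most are cut from shared long RNAs. Agreeing values among them, here and below, are therefore not independent observations of a genotype. Without the block, leaving out 1 culture at a time left all 8 values below 0 in both comparisons. The medians then ran from -0.84 to -0.37 against GFP (-0.37 without GFP replicate 2, -0.41 without the mutant's replicate 2) and from -0.89 to -0.49 against hTDP-43.

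In total mRNA the values of the mutant were below 0 too, and smaller. The 8 mRNAs had log2 changes against GFP from -0.65 (mt-Atp8) to -0.11 (mt-Nd6), and the block called mt-Cytb (-0.44, SE 0.08, adjusted p = 0.00279) and mt-Nd4 (-0.38, SE 0.09, adjusted p = 0.0242), with 2.73% of all genes called. mt-Cytb total mRNA was 878 and 763 CPM with the mutant and 1270 and 1027 CPM with GFP. Against hTDP-43 none was called with or without the block (smallest blocked adjusted p = 0.0679). Leaving out 1 culture, the median over the tested mRNAs ran from -0.52 (without hTDP-43 replicate 2) to -0.15 (without hTDP-43 replicate 1). The ratio of footprints to total mRNA gave medians of -0.30 against GFP and -0.29 against hTDP-43, with no call in either fit. An unadjusted p under 0.05 was found for 1 and 2 of the 8, beside 220 of 10081 and 231 of 10029 genes. Those medians rested on single cultures: against GFP the median was -0.048 without GFP replicate 2, with 4 of 8 below 0, and against hTDP-43 it was 0.033 without hTDP-43 A315T replicate 2, with 4 of 9 tested mRNAs below 0. hTDP-43 against GFP left the 8 footprint values between -0.09 and 0.28, with no unadjusted p under 0.05.

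In MN1 footprints of the mutant none of the 73 nuclear-encoded subunits was called against GFP or against hTDP-43, with or without the block. Of all genes, 0.0115% and 0% were called without the block, and 0.624% and 0.706% with it. At such shares, no call among 73 genes does not set them apart from the mitochondrial mRNAs. The medians of the 73 subunits were 0.00 and 0.01. In total mRNA of the mutant against GFP their median was -0.29, and 13 were called lower with the block and none higher, beside 2.73% of all genes called in either direction, while none was called without it. No protein of the mitochondrial ribosome was called in mutant footprints either, beside the same small shares of all genes.

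**Figure D4:**
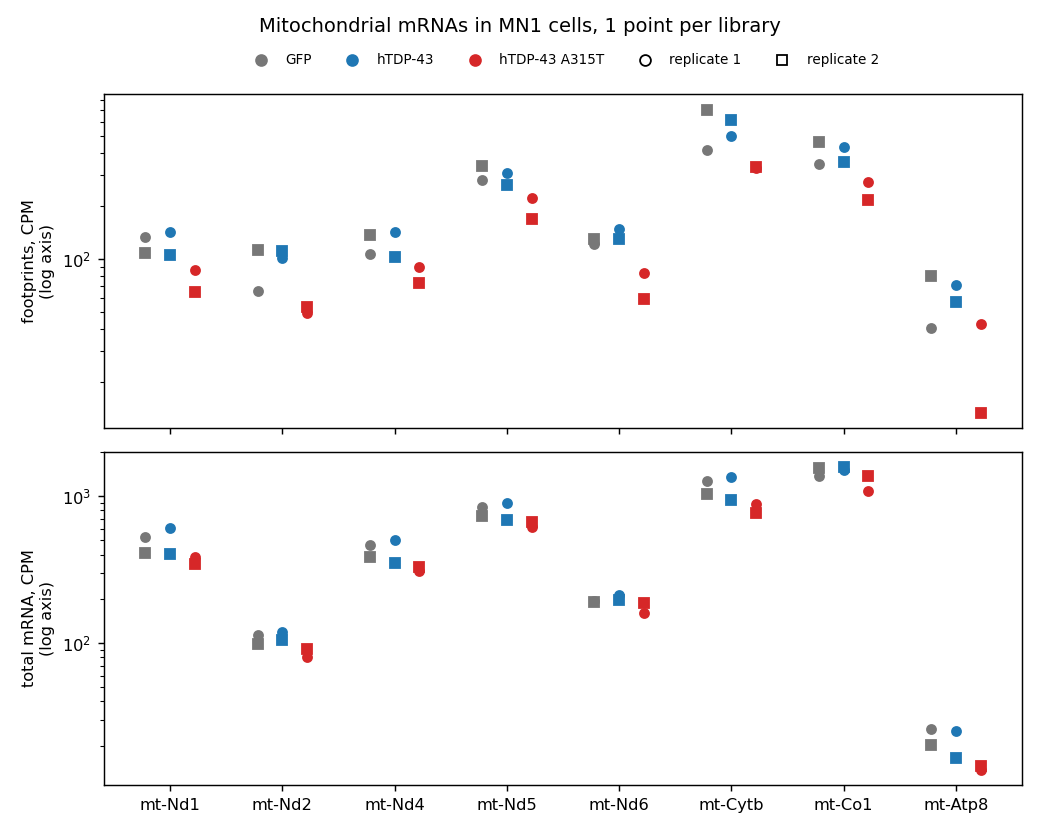
CPM of 8 mitochondrial mRNAs in MN1 footprints (top) and total mRNA (bottom), on log axes, with 1 point per library (circle, replicate 1; square, replicate 2) for GFP (grey), hTDP-43 (blue) and hTDP-43 A315T (red). In footprints both red points lie below all other points for each mRNA except mt-Atp8. The share of all genes with such a separation was not counted.

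In neurons the genotypes overlapped. mt-Cytb footprints were 854 and 2344 CPM in non-transgenic cultures, 1290, 1344 and 2017 CPM with hTDP-43, and 1418, 1066 and 850 CPM with hTDP-43 A315T. mt-Co1 footprints were 804 and 2408 CPM, 1365, 1448 and 2041 CPM, and 1476, 1022 and 789 CPM in the same order. The non-transgenic pair spans more than the difference between genotypes. Log2 changes of the 8 mRNAs for the mutant against hTDP-43 ran from -0.62 to -0.05. An unadjusted p under 0.05 was found for 4 of 8, beside 217 of 8367 genes tested. None was called (smallest adjusted p = 1.00), and the block called none. Against the non-transgenic cultures the direction rested on 1 library: the mutant's median over the 8 mRNAs was -0.51, and 0.22 with all 8 above 0 once non-transgenic replicate 3 was left out.

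In neuron total mRNA the block changed the calls of 1 comparison. For hTDP-43 against non-transgenic cultures, mt-Atp8 (-1.22, SE 0.21, adjusted p = 3.93e-05), mt-Nd6 (-1.05, SE 0.21, adjusted p = 0.000717), mt-Nd2 (-0.96, SE 0.21, adjusted p = 0.00532), mt-Nd4 (-0.92, SE 0.22, adjusted p = 0.0253) and mt-Nd5 (-0.93, SE 0.23, adjusted p = 0.0441) were called lower, among 0.169% of all genes. The rRNAs mt-Rnr1 (-1.01, adjusted p = 0.00229) and mt-Rnr2 (-0.92, adjusted p = 0.00747) were called with them. This rests on the pairs numbered 2 and 3, since the hTDP-43 replicate 1 has no non-transgenic partner. mt-Atp8 was 184 and 239 CPM in non-transgenic replicates 2 and 3 and 47.7 and 162 CPM in hTDP-43 replicates 2 and 3, and replicate 1 of hTDP-43, at 263 CPM, lay above all of them. Without the block mt-Atp8 gave -0.51 (adjusted p = 1.00). For the mutant against non-transgenic cultures the block called no mRNA but did call the tRNA mt-Tf (-3.01, SE 0.64, adjusted p = 0.00185), among 0.293% of all genes. mt-Tf was 5.26 and 142 CPM in non-transgenic replicates 2 and 3 and 4.25 and 7.81 CPM in the mutant's replicates 2 and 3.

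The pair numbered 3 consists of the libraries that stand apart. In total mRNA of non-transgenic replicate 3 the 22 tRNA genes had 2275 reads, 0.0710% of the library (95% Wilson interval 0.0681% to 0.0739%, counting error only), and in hTDP-43 replicate 3 they had 194 reads, 0.0323% (0.0281% to 0.0372%). The other 6 neuron libraries had 0.00213% to 0.00639%. Per 100 mRNA reads these are 8.98 and 5.40 tRNA reads against 0.472 to 0.799. The nuclear gene Lars2, which encodes the mitochondrial leucyl-tRNA synthetase, took 18.8% and 14.1% of the reads in the same libraries and 3.09% to 7.49% in the other 6. Its exons share no 25-base window with the mitochondrial genome. Whether the reads counted on Lars2 came from its mRNA was not tested. The share on the 13 mRNAs, 0.791% and 0.598%, lay inside the range of the others, 0.324% to 1.18%.

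The mRNAs of these libraries also differed in proportion. mt-Nd5 had 2.02 and 1.49 reads per mt-Nd1 read, against 0.570 to 0.710 in the other 6, and mt-Nd6 had 0.649 and 0.463 against 0.226 to 0.296. mt-Nd2 (0.609 and 0.532 against 0.336 to 0.430) and mt-Atp8 (0.247 and 0.203 against 0.0844 to 0.144) were also outside that range, while mt-Nd4 (0.761 and 0.622) lay inside 0.528 to 0.768. mt-Nd5 and mt-Nd6 lie end to end on opposite strands, and the counting did not separate strands, so reads of one strand over the other gene cannot be told apart. What set these libraries apart was not tested.

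**Figure D5:**
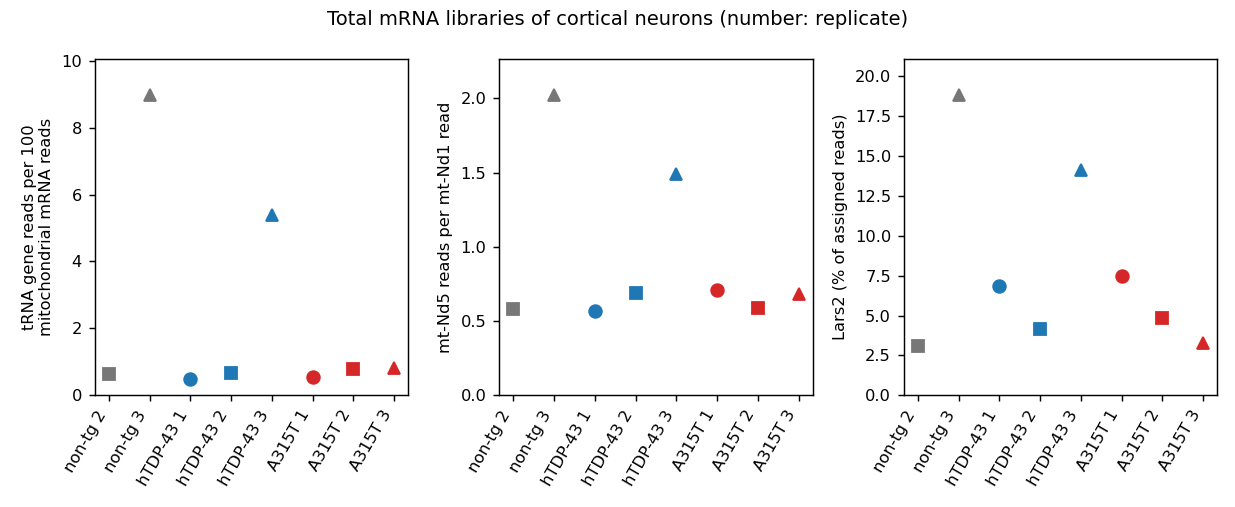
The 8 neuron total mRNA libraries by genotype and replicate number: tRNA gene reads per 100 mitochondrial mRNA reads (left), mt-Nd5 reads per mt-Nd1 read (middle) and Lars2 as a percentage of assigned reads (right). Non-transgenic replicate 3 and hTDP-43 replicate 3 lie above the other 6 libraries in each panel.

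Reads on the tRNA genes are a remainder, because the study removed reads that aligned to annotated non-coding RNAs before mapping. Of the 22 tRNA genes, 21 reached 10 reads in at least 1 library, and mt-Ty, at most 5 reads, did not. In non-transgenic replicate 3, 21 of 22 were above all 6 other neuron total mRNA libraries, and in hTDP-43 replicate 3, 19 of 22 were.

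The largest in those 2 libraries were mt-Tc, the cysteine tRNA (211 and 78.3 CPM, against 2.03 to 12.8 CPM in the other 6), mt-Tf, the phenylalanine tRNA (142 and 53.3 against 2.44 to 7.81 CPM), and mt-Tv, the valine tRNA (74.9 and 73.3 against 6.74 to 11.0 CPM). mt-Ta reached 52.4 CPM, mt-Tp 45.8 CPM, mt-Tw 31.5 CPM, mt-Te 21.2 CPM, mt-Th 20.6 CPM and mt-Tq 16.5 CPM in non-transgenic replicate 3. mt-Td, mt-Tg, mt-Tr, mt-Tm, mt-Ti, mt-Tk, mt-Tt, mt-Ts2, mt-Tl1, mt-Tn and mt-Tl2 were between 5.61 and 13.7 CPM there. mt-Ts1, at 0.624 CPM there and up to 5.31 CPM in the other 6, was the exception. In mt-Tf, mt-Tv and mt-Tp 100% of the 28-base windows had no exact nuclear copy. That share was 33.3% in mt-Tc, 42.9% in mt-Ta and 0% in mt-Tw, mt-Te, mt-Th, mt-Ts1 and mt-Ty. In each of these tRNA genes 100% of the windows had no copy inside an annotated nuclear exon. What part such copies had in these levels was not tested.

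In footprints the tRNA genes were low, at 2 to 117 reads per library, and mt-Tf held the most of them in neurons (308 reads over the 8 libraries). mt-Tf footprints were 16.9 to 81.7 CPM in the 8 neuron libraries and 0 to 7.92 CPM in the 6 MN1 libraries, without overlap. With 0 to 5 reads per MN1 library it passed the filter on low counts only through the neurons, so no test is given. The rRNA of the large mitochondrial subunit, mt-Rnr2, was 156 to 740 CPM in neuron footprints and 17.2 to 49.5 CPM in MN1 footprints (log2 3.84, SE 0.36, adjusted p = 1.92e-09), and in total mRNA the log2 difference was 1.87 (SE 0.36, adjusted p = 0.000213). mt-Rnr1, of the small subunit, gave 1.73 in total mRNA (SE 0.37, adjusted p = 0.000589). Its footprints, 3.83 to 14.3 CPM in MN1 cells and 12.5 to 83.0 CPM in neurons, overlapped and also passed the filter only through the neurons. Within MN1 cells both rRNAs were lower in footprints than in total mRNA, mt-Rnr1 by a log2 change of -2.36 (SE 0.23, adjusted p = 1.25e-06) and mt-Rnr2 by -1.58 (SE 0.17, adjusted p = 3.80e-06). Those values too describe what was left after the removal step.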

How the data were processed

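Footprint and total mRNA libraries were sequenced from 6 MN1 and 8 neuron cultures. Per the labels, the authors trimmed adapters with cutadapt 1.8.1, removed reads aligning to annotated non-coding RNAs with Bowtie2, mapped the rest with TopHat2 and counted reads per gene with featureCounts 1.4.4 (exons of Ensembl 80 on GRCm38, no strand setting, reads over more than 1 gene dropped). The deposited values are raw counts per gene.

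Counts were tested here with edgeR 4.0.16 in R 4.3.3: TMM scaling, filterByExpr with a minimum count of 10 and a minimum total of 15, quasi-likelihood F test, and Benjamini-Hochberg adjustment over all genes tested. SEs are the log2 change divided by the square root of F. Pairwise fits used the groups compared; fits across library types gave each group its own term. DESeq2 1.42.0 and its size factors, no filter, leaving out each culture, and a block were alternatives. CPM and RPKM were computed from reads assigned to genes. The fits were tested on simulated data.

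The block was the replicate number of the labels, whose titles share a date within each number and cell type except that of GFP footprint replicate 1 in MN1 cells (same day and month, another year), which was paired by its number, or the culture in fits over both library types. Deviations from the group means of same-numbered libraries correlated at 0.302 to 0.508 in MN1 cells and at -0.192 to 0.619 in neurons. Replicates are separate cultures of 1 clonal line, or of embryos of 1 strain, and p-values cover the spread between these.

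Windows of 28 bases of the mitochondrial sequence were searched in GRCm38.p6 (RefSeq); exons are those of the count tables. No pair of libraries had identical counts. Every mRNA was named, and so was each tRNA and rRNA with at least 10 reads in 1 library; up to 3 genes per nuclear list and comparison were named by size of change among those called. The members and lists were chosen with earlier results of these data known. The summed share of the 13 mRNAs is a score over a set taken up with those results in view, so the exact permutation tests planned on it are not given.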

Additional observations from a re-analysis of the deposited data

Results flagged for a closer look

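2 mitochondrial transcripts had a footprint to total mRNA ratio that differed between the cell types by the interaction term of edgeR's quasi-likelihood test over all 28 libraries. Of all tested genes 5.94% were called higher and 2.13% lower. mt-Co1 differed by a log2 value of 1.53 in favour of neurons (adjusted p = 0.0114), with a ratio above 1 in 3 of 8 neuron cultures and in 0 of 6 MN1 cultures. Its call was lost without MN1 hTDP-43 A315T replicate 2 or without MN1 hTDP-43 replicate 1. Only 33.3% of the 28-base windows of mt-Co1 had no exact nuclear copy, and what part such copies had in this ratio was not tested. mt-Rnr2 differed by 2.08 (adjusted p = 0.0226), on reads left after the removal of non-coding RNA.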

How the results depend on the processing

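The 8 mRNAs in MN1 footprints against total mRNA, and in neurons against MN1 cells in both library types, kept their direction under every alternative run, and of their calls only mt-Nd6 in footprints was lost. Single values of the 8 mRNAs were followed in these comparisons, in neuron footprints against total mRNA, in the ratio between cell types and in MN1 footprints of the mutant (56 values): under all alternatives they kept direction and side of the threshold in 719 cases, gained a call in 23, lost one in 6 and changed sign in 4, none of these called. The sign changes were in mt-Cytb in neuron footprints against total mRNA (-0.51 to 0.075 on leaving out 1 culture, 0.075 without hTDP-43 replicate 1), and, for the difference of that ratio between cell types, mt-Nd2 (-0.38 to 0.056, with 0.056 without MN1 GFP replicate 2 and 0.018 without non-transgenic replicate 2) and mt-Atp8 (-0.70 to 0.048, with 0.048 without MN1 hTDP-43 A315T replicate 1).

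The other genotype comparisons, were followed by counts and medians, and several changed direction. Leaving out 1 culture moved the median over the tested mRNAs from -0.60 (without non-transgenic replicate 2) to 0.72 (without replicate 3) in neuron footprints of hTDP-43 against non-transgenic cultures, and from -1.09 to 0.22 for the mutant. In neuron total mRNA of the mutant against hTDP-43 it ran from -0.36 to 0.69.

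With the replicate block the number of called mRNAs rose from 0 to 1 for the mutant against GFP in MN1 footprints, to 4 against hTDP-43, to 2 in MN1 total mRNA against GFP and to 5 in neuron total mRNA of hTDP-43 against non-transgenic cultures, and from 1 to 4 for the footprint to total mRNA ratio between cell types. Over all genes the block called, in that order, 0.624%, 0.706%, 2.73% and 0.169%, and for the ratio 7.76% higher and 2.94% lower. Blocked genotype fits leave little within a gene from which to estimate its spread, which limits their calls. Leaving out 1 culture leaves a single culture in some genotype groups, in MN1 cells in every case. How many mRNAs such fits called is therefore not given. In neuron footprints against total mRNA 5 mRNAs were called, mt-Co3 with few reads among them, where 26.6% of genes were higher and 27.3% lower. With no filter on low counts 9 were called, where 2758 of 27998 genes were higher and 4079 lower. No filter gave 5 for the ratio between cell types, where 478 of 30334 genes were higher and 276 lower. Settings without both neuron cultures numbered 3 leave 1 non-transgenic culture, and the number of mRNAs they called is not given either. The cause of these changes was not tested. Single-culture groups left by these settings are assumed to vary like the others, and counts under 100 reads, as for mt-Atp8 in MN1 cells, limit what could be called.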
